A study of Homo sapiens with 9 samples.

Results

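The JUN and FOS genes encode the subunits of AP-1, a transcription factor built from pairs of basic leucine zipper proteins. The family was taken as the 7 genes named JUN, JUNB, JUND, FOS, FOSB, FOSL1 and FOSL2 out of the 58735 genes listed in the count tables, and all 7 passed the filter on low counts that left 18319 genes for testing. The choice was made knowing that JUN had been called higher with dTAG47 in these libraries. The values of the members in the comparisons with DMSO are therefore descriptions of how the family looked, and not independent support for a change in it.

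JUN proteins can pair with each other or with a FOS protein, whereas FOS proteins need a JUN partner to bind DNA. The pairs bind the TPA response element TGANTCA, in which N is C or G, and, more weakly or with other zipper partners, the cyclic AMP response element TGACGTCA. Several of the genes, FOS above all, are immediate early genes: they are switched on briefly by growth factors and stress, and their short-lived messages are cleared within a short time. JUN is activated by the JNK kinases and by AP-1 itself.

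The measurements are poly(A)-selected RNA sequencing of HEK293T, an established line derived from human embryonic kidney that carries SV40 large T antigen. Every library, the DMSO controls included, came from cells of the genotype PRPS1-HA-dTAG and PRPSAP1-V5-BromoTag, in which degron tags sit on both proteins. A group of 3 libraries received DMSO, another 3 received 500 nM dTAG47, a degrader used to remove the PRPP synthetase PRPS1, and the last 3 received 500 nM AGB1, a degrader used to remove the associated protein PRPSAP1. RNA was taken after 24 h, and loss of the tagged proteins themselves cannot be read from these RNA counts. The labels do not say whether the line is a single clone or whether replicates were grown as separate cultures. The p-values therefore reflect the scatter among these libraries alone, and that scatter may be technical. Cells without the tags were not analysed here, so an effect of a compound apart from its target cannot be told apart from the loss of that target.

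Libraries held between 27964128 and 44803380 counts, so that 3 counts correspond to 0.0670 to 0.107 CPM (counts scaled to library size). The labelled cell type is epithelial: among its markers, the keratin KRT18 stood at 52.3 CPM and KRT8 at 33.3 CPM in DMSO, EPCAM at 2.24 CPM, and KRT19 had no count in DMSO. The 5 epithelial markers summed to 82.8 to 100.2 CPM over the 9 libraries, the 3 mesenchymal ones (CDH2, VIM, FN1) to 433 to 482 CPM, and the 3 neurofilament-type genes known from HEK293 lines (NEFL, NEFM, INA) to 305 to 368 CPM. VIM made up most of the mesenchymal sum, at 363 CPM in DMSO, where CDH2 stood at 71.0 and FN1 at 31.2 CPM. Fibroblast markers (5 genes) summed to 22.9 to 32.8 CPM and the 4 blood markers to at most 1.39 CPM. Nearly all of the fibroblast sum was COL1A1, at 27.3 CPM in DMSO. The other fibroblast markers, COL1A2, DCN, LUM and PDGFRB, stood at 0.0625, 0.0536, 0.196 and 0.397 CPM there. Libraries differed in how strongly counts followed the GC content of transcripts. Across 11436 genes, which are not independent replicates, Spearman's rho of a gene's deviation with its GC content was −0.391 in DMSO 1 and 0.629 in dTAG47 1, the lowest and the highest of the 9, and lay between −0.0242 and 0.0523 with AGB1.

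Short stretches of the members' promoters are shown first, because AP-1 and cyclic AMP response sites are the elements through which family members are known to be regulated. RefSeq promoter windows (GRCh38.p14, from 250 bases before to 50 after the gene start) were found for 6 of the 7 members; FOSL1 had no entry. The motifs searched, on both strands, were TGANTCA, TGACGTCA, its shortened form TGACGT (which lies inside TGACGTCA), the variant TGACATCA, the CCAAT box CCAAT and the TATA box TATAAA. They were chosen after these windows had been read. Each line gives 30 bases of the strand of the gene, with the match in capitals.
JUN: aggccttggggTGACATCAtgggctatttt
JUND: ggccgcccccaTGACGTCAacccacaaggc
JUND, nearer the start: tgcaaatgagcgACGTCAcccgcacccaat
FOS: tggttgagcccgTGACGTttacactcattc
FOSB: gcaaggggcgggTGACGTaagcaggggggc
FOSL2: ggagtctggggtTGACGTgagtgaatccac
FOSL2, past the start: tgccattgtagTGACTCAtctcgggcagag
JUNB: ctccggcgacggCCAATcggagcgcacttc

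The JUN stretch (chr1:58784096-58784125, minus strand) holds TGACATCA, which begins 67 bases before the RefSeq start and lies in the exon of the longer gene model used for counting. The variant occurs in 2.61% of all 35116 windows of this length. The complete element TGACGTCA was found in JUND alone among the 6 (chr19:18281804-18281833, minus strand, beginning 200 bases before the start) and in 1.85% of all windows. JUND has a further ACGTCA, the reverse strand's TGACGT, 87 bases before its start (chr19:18281692-18281721).

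The shortened form TGACGT was found in JUND, FOS, FOSB and FOSL2, 4 of the 6 windows, and in 7.98% of all windows. In FOS (chr14:75278752-75278781, plus strand), FOSB (chr19:45467924-45467953, plus strand) and FOSL2 (chr2:28392780-28392809, plus strand) it began 64, 60 and 66 bases before the start. The AP-1 pattern TGANTCA, searched with N as any base, occurred once, as TGACTCA in FOSL2 (chr2:28392851-28392880), just past the start and within an exon. Of all windows, 7.71% hold the pattern. CCAAT was found in JUN, JUNB and JUND (JUNB chr19:12791407-12791436, plus strand) and in 34.6% of all windows, and TATAAA in JUNB, FOS and FOSB and in 11.5%. These are letter matches within a window and do not show binding.

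JUN was by far the most abundant member. Levels are compared between genes only as CPM per kb of gene length. On that scale JUN averaged 154 CPM per kb over the 9 libraries, above 99.0% of tested genes, JUND 27.4 and JUNB 7.26. The FOS side of the family was low throughout: FOSL1 averaged 1.81, FOS 1.63, FOSL2 1.58 and FOSB 0.692 CPM per kb, the last above 25.7% of tested genes. JUN was 5.62 times JUND, 21.2 times JUNB and 94.5 times FOS. Of the summed level per length of the 7 genes, JUN took 79.0% in DMSO, 78.8% with dTAG47 and 79.8% with AGB1.

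The order JUN, JUND, JUNB held in each library, with no overlap between their ranges (118 to 181, 19.7 to 34.8 and 5.98 to 8.20 CPM per kb). FOSL1 (1.10 to 2.99), FOS (1.00 to 2.15) and FOSL2 (1.18 to 2.05) overlapped, so these neighbours did not differ beyond their spread. FOSB (0.491 to 0.907) lay below all of them. The order among the 3 depended on the length used: per kb of the longest protein-coding transcript FOS came to 2.44, FOSL1 to 2.05 and FOSL2 to 1.68, and FOSB to 1.02.

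**Figure D1:**
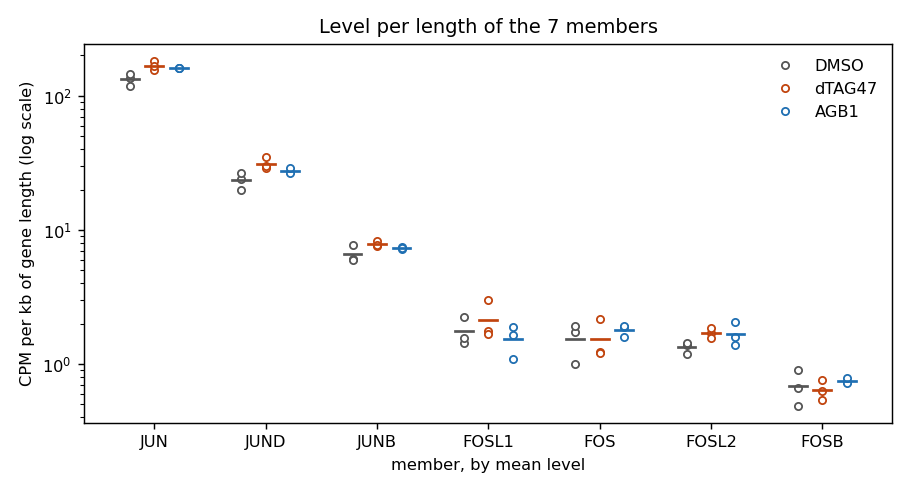
Level of each member per kb of gene length on a log axis, with 1 circle per library and a bar at the mean of the 3 libraries of a group. JUN stands at 118 to 181 CPM per kb, and FOSB, the lowest, at 0.491 to 0.907.

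JUN (ENSG00000177606, GRCh38 chromosome 1, 58780788 to 58784327, minus strand, 1 exon) was higher in the libraries of either compound than in DMSO. It stood at 419, 482 and 515 CPM in DMSO 1 to 3, at 641, 547 and 585 CPM in dTAG47 1 to 3, and at 569.8, 566 and 573 CPM in AGB1 1 to 3. All 6 libraries with a compound lay above all 3 DMSO libraries. Averages were 472 ± 48.8 CPM (SD, n = 3) in the controls, 591 ± 47.3 in dTAG47 libraries and 569.6 ± 3.62 in AGB1 libraries. The spread was thus unequal: the coefficient of variation was 10.3% in DMSO and 0.635% with AGB1.

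The log2 fold change of JUN was 0.32 with dTAG47 (SE 0.06, 95% interval 0.20 to 0.45), and 0.27 with AGB1 (SE 0.06, 0.15 to 0.39). All groups share an estimate of spread in this fit, so the AGB1 libraries also enter the SE with dTAG47. From dTAG47 and DMSO alone that SE was 0.0674, against 0.0598. With dTAG47 JUN was the 1 member of 7 past the threshold in edgeR's quasi-likelihood test over all genes (adjusted p = 0.0224), where 0.06% of tested genes passed in either direction, 0.0328% upward and 0.0273% downward. At an unadjusted p under 0.05 there were 3 members, all upward, beside 7.28% of tested genes in either direction and 3.65% upward. This is the call for which the family was chosen. With AGB1 the adjusted p was 0.0719, and 0 of 7 members passed, where 0.104% of tested genes did (0.0546% upward and 0.0491% downward). With AGB1, 3 members had an unadjusted p under 0.05, all upward (7.76% of tested genes in either direction, 3.55% upward). There DESeq2 called 1 member, JUN (adjusted p = 0.0132), among 76 genes in all, and limma-voom 0 members, among 16 genes in all. Between the compounds the JUN difference was 0.05 (interval −0.07 to 0.17), and 0 of 7 members and 0% of tested genes passed; 0 members had an unadjusted p under 0.05 (4.02% of tested genes, 2.25% upward), and DESeq2 and limma-voom called 0.

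The JUN call with dTAG47 rested on several libraries. It ended without DMSO 1 (0.25, edgeR adjusted p = 0.0796), DMSO 2 (0.34, adjusted p = 0.121), dTAG47 1 (0.26, adjusted p = 0.193) or dTAG47 3 (0.33, adjusted p = 0.0912), and in a fit of dTAG47 and DMSO alone (adjusted p = 0.0917). Without both DMSO 1 and dTAG47 1 the log2 fold change was 0.19 with dTAG47 (adjusted p = 0.175) and 0.19 with AGB1 (adjusted p = 0.0504).

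JUND (ENSG00000130522, chromosome 19, 18279760 to 18281622, minus strand), a constitutively expressed relative that is often linked to slow growth, followed the pattern of JUN. Its levels were 36.7, 44.5 and 49.7 CPM in DMSO 1 to 3, 64.9, 53.5 and 55.6 CPM in dTAG47 1 to 3, and 50.6, 49.6 and 53.7 CPM in AGB1 1 to 3. All dTAG47 libraries exceeded all DMSO libraries, while AGB1 2 lay just under DMSO 3. The log2 fold change was 0.41 with dTAG47 (SE 0.09, interval 0.22 to 0.60), larger in size than that of JUN but less precise, and it did not pass (edgeR adjusted p = 0.128). It passed in DESeq2 (adjusted p = 0.0272), with the GC trend removed (0.36, edgeR adjusted p = 0.0304) and without DMSO 3 (0.51, edgeR adjusted p = 0.0132), and was 0.21 without both DMSO 1 and dTAG47 1. With AGB1 it was 0.23 (SE 0.09, interval 0.04 to 0.43), and between the compounds 0.18 (−0.02 to 0.37). The first of these was 0.12 without DMSO 1, and the second 0.0887 without dTAG47 1.

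JUNB (ENSG00000171223, chromosome 19, 12791496 to 12793315, plus strand, 1 exon), which often opposes JUN on shared targets, differed less. It stood at 11.1, 10.9 and 14.1 CPM in DMSO 1 to 3, at 13.9, 14.9 and 14.1 CPM in dTAG47 1 to 3, and at 13.5, 13.0 and 13.4 CPM in AGB1 1 to 3. DMSO 3 was as high as the libraries with a compound, so the groups overlapped. On the log2 scale the difference from DMSO came to 0.25 for dTAG47 (interval −0.01 to 0.52) and 0.15 with AGB1 (−0.12 to 0.41). Without DMSO 3 these were 0.38 and 0.28, and without DMSO 2 they were 0.18 and 0.0785. HOOK2, a gene on the opposite strand, shares 259 of the 1820 exonic bases of JUNB, or 14.2%, and the strand setting of the counting is not given in the sources used here. HOOK2 itself averaged 22.2 ± 2.88 CPM (SD, n = 3) in the controls, 22.6 ± 2.99 in dTAG47 libraries and 23.9 ± 1.39 in AGB1 libraries.

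**Figure D2:**
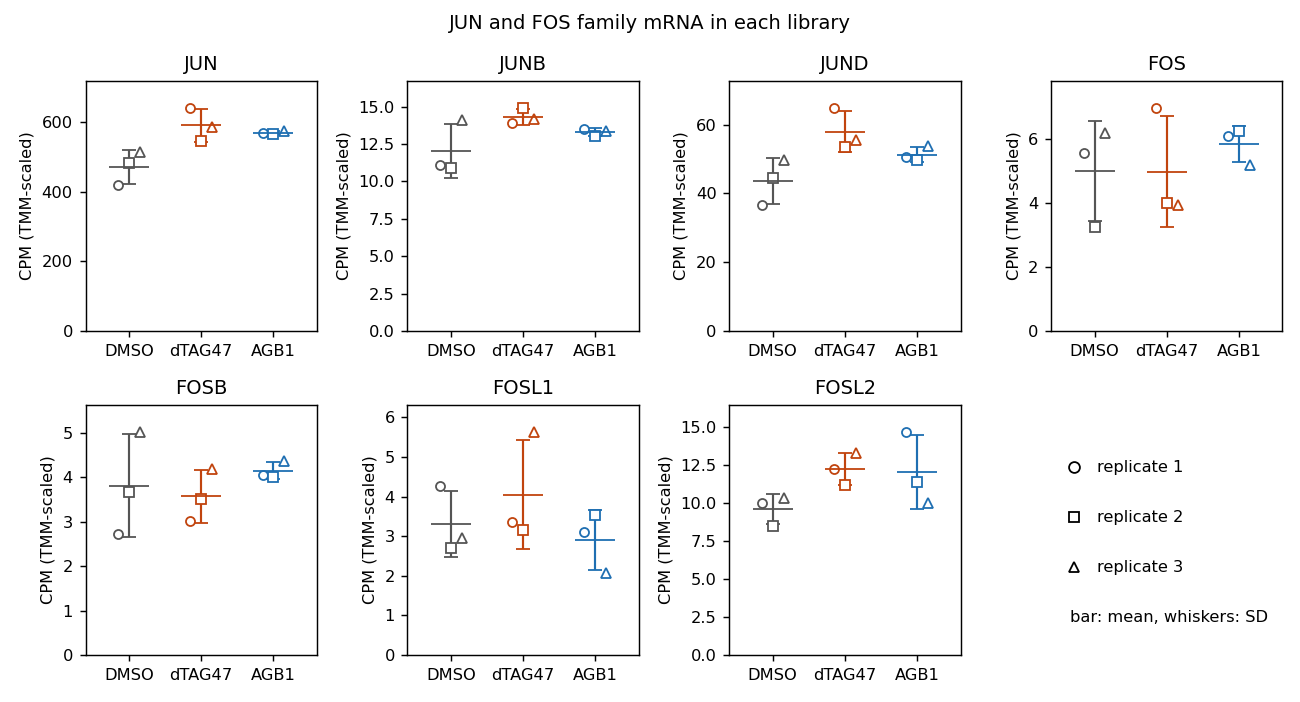
CPM of each member in each library, with circles, squares and triangles for replicates 1, 2 and 3, a bar at the group mean and whiskers for the SD (n = 3). JUN lies at 419 to 515 CPM in DMSO and at 547 to 641 CPM in the libraries with a compound, whereas FOS, FOSB and FOSL1 overlap between groups.

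FOSL2 (ENSG00000075426, chromosome 2, 28392448 to 28417312, plus strand), a FOS relative without the strong activation domain of FOS, was the FOS-side gene with the most regular difference. Its levels were 9.99, 8.45 and 10.3 CPM in DMSO 1 to 3, 12.2, 11.2 and 13.3 CPM in dTAG47 1 to 3, and 14.7, 11.4 and 9.97 CPM in AGB1 1 to 3. The dTAG47 libraries lay above all DMSO libraries, while AGB1 3 lay among them. The log2 fold change was 0.35 with dTAG47 (SE 0.15, interval 0.04 to 0.65, edgeR adjusted p = 0.627) and 0.33 with AGB1 (SE 0.15, 0.02 to 0.63, adjusted p = 0.601). Neither passed the threshold, and the AGB1 value was 0.16 without AGB1 1.

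FOS (ENSG00000170345, chromosome 14, 75278774 to 75282230, plus strand), the prototype of the immediate early genes, was low and scattered. It stood at 5.57, 3.24 and 6.19 CPM in DMSO 1 to 3, at 6.97, 4.0 and 3.94 CPM in dTAG47 1 to 3, and at 6.10, 6.23 and 5.18 CPM in AGB1 1 to 3. The lowest and the highest of the 9 libraries were DMSO 2 and dTAG47 1. On the log2 scale the difference from DMSO came to −0.01 for dTAG47 (interval −0.49 to 0.46) and 0.22 with AGB1 (−0.25 to 0.69), so a change of the size seen for JUN was not detectable for FOS with this spread.

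FOSB (ENSG00000125740, chromosome 19, 45467995 to 45475179, plus strand), whose truncated form accumulates under lasting stimulation, ranged from 2.72 CPM (DMSO 1) to 5.03 CPM (DMSO 3), so that DMSO held both ends. On the log2 scale it differed from DMSO by −0.10 for dTAG47 (interval −0.57 to 0.37) and by 0.12 with AGB1 (−0.35 to 0.59).

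FOSL1 (ENSG00000175592, chromosome 11, 65892049 to 65900573, minus strand), a target of AP-1 that encodes FRA1, ranged from 2.07 CPM (AGB1 3) to 5.64 CPM (dTAG47 3). Against DMSO its log2 difference came to 0.29 in dTAG47 libraries (interval −0.25 to 0.82) and to −0.18 in AGB1 libraries (−0.73 to 0.36), with 0.47 between the compounds (−0.07 to 1.01). Without dTAG47 3 the latter was 0.16 and the difference from DMSO was −0.03, so its sign with dTAG47 rested on that library.

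Across the family, 5 of 7 members had a positive log2 fold change with dTAG47 (median 0.29) and 6 of 7 with AGB1 (median 0.22), beside 49.7% of all tested genes in either comparison and medians of −0.00 over all genes. The 3 members whose 95% interval lay above 0 were JUN, JUND and FOSL2, with either compound, and for JUND and FOSL2 with AGB1 the value changed by more than 1.5 times without 1 library, as given above. The libraries did not overlap for JUN, JUND and FOSL2 with dTAG47, 3 of 7, where 5.8% of tested genes had all dTAG47 libraries above all DMSO libraries, and for JUN with AGB1, 1 of 7, where the share was 6.56%. These comparisons share the DMSO libraries, and the family was chosen on the first, so nothing is read from these counts. All 7 intervals between the compounds included 0, and JUNB was the 1 member of 7 with all dTAG47 libraries above all AGB1 libraries, where 5.35% of tested genes were.

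**Figure D3:**
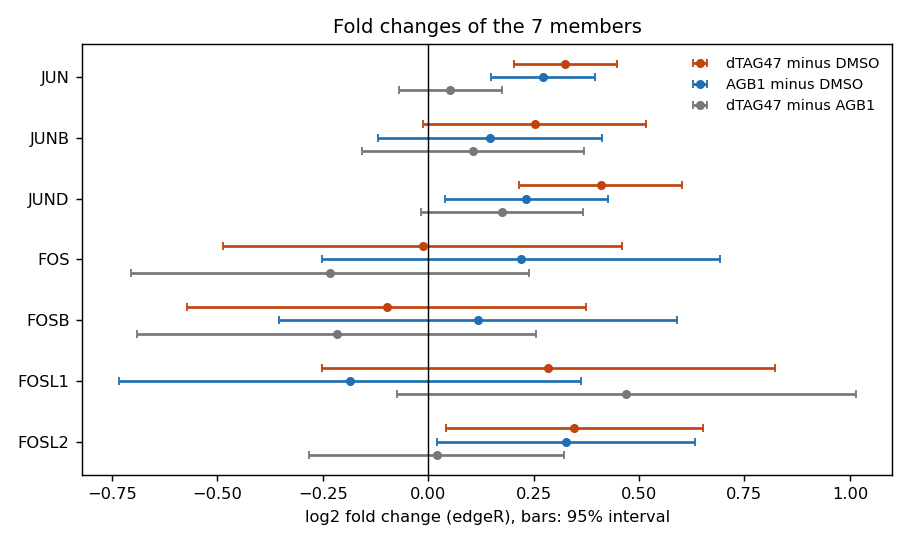
The edgeR log2 fold change of each member in the 3 comparisons, with bars for the 95% interval. The bars of JUN, JUND and FOSL2 lie above 0 for either compound against DMSO, and all 7 bars between the compounds cross 0.

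JUN and JUND varied together from library to library. Pearson's r between their log2(CPM + 0.5) values was 0.96 over the 9 libraries, 0.84 without DMSO 1 and dTAG47 1, and 0.97 for deviations from the group means, so the likeness was also seen among libraries of the same group. These libraries share scaling and the GC trend, and the values are descriptions. JUN with JUNB gave 0.74, JUN with FOSL2 0.61, JUN with FOS 0.27 and JUN with FOSL1 −0.07. Among 10838 protein-coding genes of at least 5 CPM, the 5 most like JUN over the 9 libraries were FAM102A (r = 0.97), BRI3 (0.96), JUND (0.96), CHPF (0.96) and TAGLN2 (0.96). Those most like JUND were SELENOM (0.98), CD151 (0.97), FAM102A (0.96), VOPP1 (0.96) and FOXK2 (0.96).

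Measured from their 9-library mean, JUN and JUND lay on the side of a library's GC trend in some libraries and not in others. Within each group their order followed that trend, as given below. The longest JUND transcript has 69.7% GC and that of JUN 56.7%, against 52.6% for FOS. In DMSO 1, JUN lay 0.37 below its mean on the log2 scale (deviation −0.37) while the median of the 678 other genes within 1 percentage point of its GC content lay at −0.06; in dTAG47 1 the values were 0.25 and 0.09. JUND lay at −0.45 in DMSO 1 and 0.36 in dTAG47 1, where the 46 other genes of similar GC content had medians of −0.12 and 0.21. In DMSO 3 (rho 0.278) the GC-matched medians were positive, 0.04 for JUN and 0.14 for JUND, while JUN lay at −0.07 and JUND at −0.02. In dTAG47 2 (rho −0.337) the matched medians were negative, −0.03 and −0.09, while JUN lay at 0.02 and JUND at 0.08. These deviations are taken from the mean of all 9 libraries, so they also hold the differences between groups. Within each group, JUN and JUND ranked in the order of rho. In DMSO 1 to 3 rho was −0.391, −0.283 and 0.278, with JUN at 419, 482 and 515 CPM. In dTAG47 1 to 3 rho was 0.629, −0.337 and 0.0319, with JUN at 641, 547 and 585 CPM. The cause of this order was not tested. With the GC trend of each library removed, JUN was at 0.29 with dTAG47 (SE 0.05, edgeR adjusted p = 0.00176) and at 0.26 with AGB1 (SE 0.05, adjusted p = 0.00403).

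**Figure D4:**
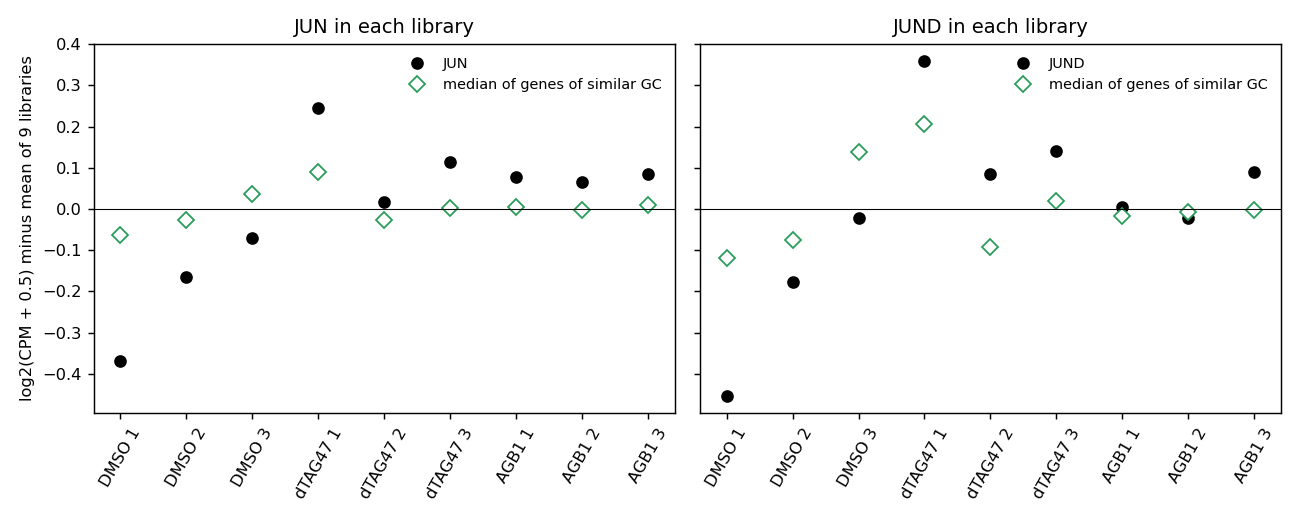
Deviation of JUN and of JUND from their mean over the 9 libraries (filled circles) and the median deviation of genes within 1 percentage point of the same GC content (open diamonds), on the log2(CPM + 0.5) scale. JUN lies at −0.37 in DMSO 1 and 0.25 in dTAG47 1, and the medians of its GC-matched genes lie between −0.06 and 0.09.

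None of the genes around the family passed the threshold with either compound in edgeR's test. Beside the counts that follow, 49.7% of all tested genes were positive with either compound, 7.28% with dTAG47 and 7.76% with AGB1 had an unadjusted p under 0.05, and DESeq2 called 45 and 76 genes in all. The lists were other leucine zipper partners, upstream kinases and factors, feedback phosphatases, factors that turn over JUN and FOS, and textbook AP-1 targets. Of 18 tested partners (BATF was too low), 8 were positive with dTAG47 (median −0.01) and 10 with AGB1 (median 0.02); at an unadjusted p under 0.05 there were 1 (higher) and 4 (2 higher and 2 lower), and DESeq2 called ATF3 with AGB1 while limma-voom called 0. ATF4, the amino acid stress factor that can pair with AP-1 subunits, was at 0.08 with dTAG47 and 0.13 with AGB1. NFE2L1, a regulator of proteasome genes, was at 0.09 and 0.07. ATF3, a stress-induced JUN partner, was at 0.15 (SE 0.07) and 0.29 (SE 0.07).

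Of 17 upstream genes, 10 were positive with either compound (medians 0.03 and 0.01), with 2 (1 higher and 1 lower) and 1 (higher) at an unadjusted p under 0.05. ELK1, the ternary complex factor that drives FOS through the serum response element, was at 0.18 (SE 0.06) with either compound, from 78.3 ± 1.65 CPM (SD, n = 3) in DMSO to 88.6 ± 2.69 with dTAG47 and 88.6 ± 2.09 with AGB1. MAP2K2, a kinase that activates ERK, was at 0.12 and 0.02. DESeq2 and limma-voom called 0 of these 17.

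Of 8 tested feedback phosphatases, which switch off MAP kinases (DUSP2 was too low), 6 were positive with dTAG47 (median 0.07) and 3 with AGB1 (median −0.03), and 1 and 2, all higher, had an unadjusted p under 0.05. DUSP1, which dephosphorylates JNK and p38, was at 0.31 (SE 0.10) with dTAG47 and 0.32 (SE 0.10) with AGB1, values close to those of JUN. It stood at 33.1, 47.2 and 40.8 CPM in DMSO 1 to 3 and at 52.9, 46.0 and 51.8 CPM in dTAG47 1 to 3. Unlike for JUN, these groups overlapped. In AGB1 1 to 3 it stood at 48.7, 51.3 and 51.7 CPM. DUSP14 was at 0.17 and 0.27, and DUSP7 at 0.08 and 0.09. DESeq2 and limma-voom called 0. Of 10 genes that control the stability of JUN and FOS protein or message, 2 were positive with dTAG47 and 4 with AGB1 (medians −0.06 and −0.06), and 0 and 1 (lower) had an unadjusted p under 0.05, with 0 called by DESeq2 and limma-voom. KHSRP, which promotes decay of AU-rich messages, was at 0.04 and 0.05, ELAVL1, which stabilises them, at −0.01 and 0.05, and the decay factor ZFP36L2 at −0.04 and −0.08.

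Of 18 tested AP-1 targets, 12 were positive with either compound (medians 0.06 and 0.04), and 2 (higher) and 4 (3 higher and 1 lower) had an unadjusted p under 0.05. DESeq2 called ODC1, the first enzyme of polyamine synthesis, with AGB1, and limma-voom called 0. ODC1 was at 0.05 (SE 0.05) with dTAG47 and 0.16 (SE 0.05) with AGB1, the intermediate filament gene VIM at −0.03 and −0.08, and the protease inhibitor TIMP1 at 0.08 and 0.03. The collagenase MMP1, MMP3, IL6, CXCL8 and SPP1, which AP-1 drives in other cell types, were among the listed targets too low to be tested.

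**Figure D5:**
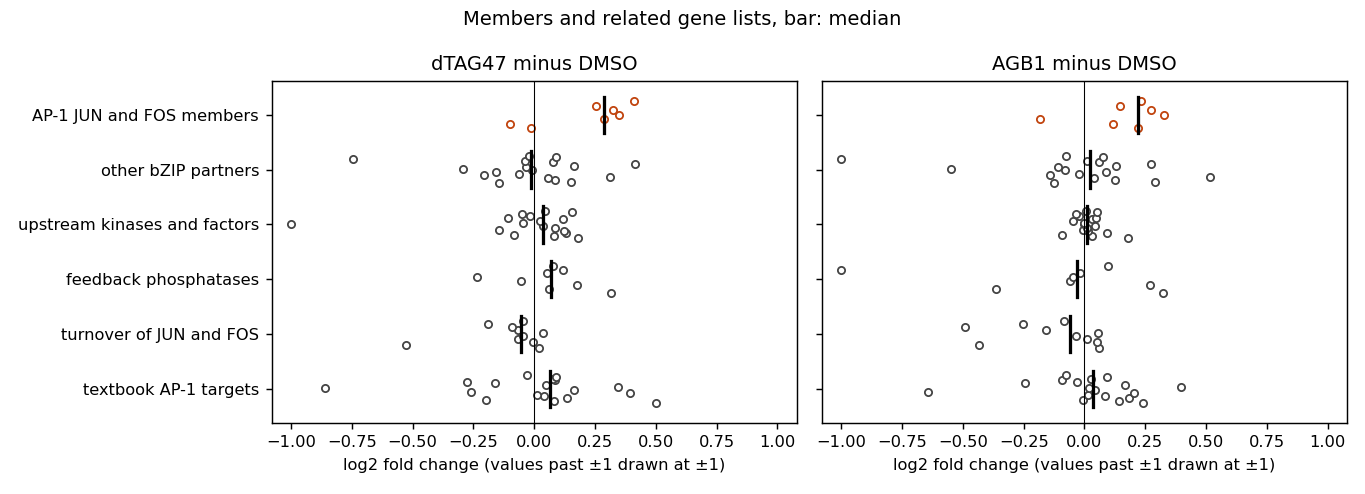
The edgeR log2 fold changes of the 7 members and of the tested genes of the 5 related lists, with 1 circle per gene and a bar at the median, for dTAG47 and for AGB1 against DMSO. The medians of the related lists lie between −0.06 and 0.07, against 0.29 and 0.22 for the members; MAPK10 with dTAG47 and NFE2 with AGB1 are drawn at −1, the edge of the axis.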

How the data were processed

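RNA was sequenced in 9 libraries, 3 per group; groups and replicate numbers come from the titles. The deposited files hold raw counts per Ensembl gene, which the authors did not normalize. HISAT2, DESeq2 and the build hg38 are named in the submitters' processing notes; tool versions, the counter and strandedness are not given in the sources. All 58735 gene models match GENCODE 29 (GRCh38).

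Counts were fitted with edgeR 4.0.16 in R 4.3.3: filterByExpr, TMM, 1 quasi-likelihood model over the 9 libraries, Benjamini-Hochberg adjustment over 18319 genes and a threshold of 0.05. Standard errors were obtained from each log2 fold change and its F statistic. The fit was tested on simulated data. Promoter sequences are RefSeq's (GRCh38.p14). Members and lists were chosen with earlier results of these data known. Besides the members, the rule named the 3 genes per list with the highest CPM per kb, list genes called by edgeR in any comparison (there were 0, while DESeq2 called ATF3 and ODC1 and limma-voom 0), the 5 genes most correlated with JUN and with JUND, and neighbours that bear on a member's count; some genes the lists hold are not reported here by name. Alternatives included DESeq2 1.42.0, limma-voom (limma 3.58.1), other scalings, filters and gene sets, removal of the length or GC trend (lowess, span 0.3), the replicate block, and leaving out each library; leaving out DMSO 1 and dTAG47 1 together was chosen after seeing the data. Reads carry no molecular identifiers, so depth limits cover counting error only.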

Additional observations from a re-analysis of the deposited data

How the results depend on the processing

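The number of members called with dTAG47, 1 in the fit as reported, was 2 (JUN and JUND) with DESeq2, no count filter, the length trend removed, and the GC trend removed with or without the replicate block. These settings also called more genes in all than the 11 of the fit as reported. The totals were 45 with DESeq2, 43 with no count filter and 14 with the length trend removed. With the GC trend removed they were 24 with the replicate block and 23 without it. The number of members was 0 with the 2 groups alone (4 genes in all) and without both DMSO 1 and dTAG47 1 (6 genes in all). It lay between 0 and 2 when 1 library at a time was left out (2 to 20 genes in all). With AGB1, 0 became 1 (JUN) with DESeq2, no count filter, the 2 groups alone, protein-coding genes only, and the length or GC trend removed with or without the replicate block, and it lay between 0 and 1 when 1 library was left out. Genes called in all with AGB1 were 19 in the fit as reported. They numbered 6 to 55 with 1 library left out and 16 to 76 over the other settings. Between the compounds the number of members called stayed at 0 under every setting run. The replicate numbers were not found to pair the libraries: deviations of same-numbered libraries correlated between −0.161 and 0.0726, and 2 of 9 libraries correlated best with their own number. With the replicate block alone JUN was at 0.33 with dTAG47 (edgeR adjusted p = 0.0275) and 0.27 with AGB1 (adjusted p = 0.0842), and the counts of members called were 1, 0 and 0. Mean levels per kb of the longest transcript were 2.44 for FOS and 1.02 for FOSB, against 1.63 and 0.692 per kb of gene length.

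Signs turned only among small or scattered values. Without both DMSO 1 and dTAG47 1, AGB1 minus DMSO was −0.0727 for FOSB and 0.0399 for FOSL1, and dTAG47 minus AGB1 was −0.00793 for JUN. With 1 library left out, dTAG47 minus DMSO ranged from −0.34 to 0.17 for FOS, −0.29 to 0.16 for FOSB and −0.0254 to 0.51 for FOSL1. AGB1 minus DMSO ranged from −0.0125 to 0.40 for FOS, −0.0712 to 0.37 for FOSB and −0.34 to 0.0411 for FOSL1, and dTAG47 minus AGB1 from −0.00876 to 0.10 for JUN and −0.10 to 0.19 for FOSL2. The cause of these shifts was not tested. Over all genes, calls with dTAG47 numbered 11 (45 with DESeq2, 43 with no count filter, 4 with the 2 groups alone, and 2 to 20 with 1 library left out) and with AGB1 19 (76 with DESeq2, 67 with no count filter, and 6 to 55 with 1 library left out).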

Other observations

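Outside the rule, and chosen after their values were seen, a few low genes of the related lists had larger differences than the members, none of which passed over all genes. MAPK10, which encodes the neuronal kinase JNK3, stood at 2.09, 2.68 and 1.29 CPM in DMSO 1 to 3 and at 0.739, 0.558 and 1.09 CPM in dTAG47 1 to 3, which differ by −1.35 on the log2 scale (SE 0.38, edgeR adjusted p = 0.286). It was at 1.73, 1.68 and 2.62 CPM in AGB1 1 to 3. LIF, a cytokine gene and AP-1 target, was at 5.05, 6.36 and 4.95 CPM in DMSO and 2.79, 4.22 and 3.50 CPM with AGB1 (−0.64, SE 0.21, adjusted p = 0.366). The zipper gene MAF was at 12.3, 11.3 and 10.6 CPM in DMSO and 7.21, 8.95 and 7.22 CPM with AGB1 (−0.55, SE 0.15, adjusted p = 0.221). NFE2, another zipper gene, had 14, 32 and 24 counts in DMSO 1 to 3 and 4, 0 and 4 counts in AGB1 1 to 3, close to the limit of detection (−3.01, SE 0.84, adjusted p = 0.235). In each of these 4 contrasts with DMSO the libraries of the groups did not overlap, as for 11.6% of tested genes with dTAG47 and 13.3% with AGB1 in either direction. Because the 4 were picked on their values, nothing is read from that. All 4 are decreases. Other low genes of the lists were higher, such as BATF2 with AGB1 (0.52, SE 0.47) and AREG with dTAG47 (0.50, SE 0.63), and overlapped with DMSO.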
